A study of Mus musculus with 9 samples.

Results

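Embryoid bodies (EBs) of Tnfaip2-/- mouse embryonic stem cells (ESCs) that received PA (palmitic acid) together with PC, which is palmitoyl-L-carnitine, were compared with untreated wild-type (WT) EBs by RNA sequencing. The comparison took 6 of the 9 libraries of the series by their titles, 3 of PA/PC-treated knockout (KO) EBs and 3 of WT EBs. The other 3 libraries, of untreated KO EBs, entered no test and are given only for reference. Both compared groups came from E-14 ESCs grown with leukemia inhibitory factor (LIF), formed EBs from 1000 cells per hanging drop over 3 days, and then differentiated for 3 days on gelatin in fibroblast medium. The labels give this medium with serum replacement, whereas the study's methods give fibroblast medium with fetal bovine serum. The KO EBs alone received 8 µM each of PA and PC. By the study's methods their EBs already formed in fibroblast medium with PA and PC, whereas untreated drops were set up in ESC medium, which contains LIF; the labels do not mention this difference. The KO cells were a single CRISPR-Cas9 clone with a frameshift and a premature stop, and the WT cells were the parental line. WT EBs with PA/PC are not analysed here, so that genotype, clone, treatment and the medium during EB formation cannot be told apart in any difference given below. The study analysed KO against WT and KO with against without PA/PC as separate mouse data sets, and no label gives a library batch or date, so that a batch between the compared groups cannot be told apart from them either. The question was what differed from WT when the KO EBs had been supplied with PA and PC. Whether untreated KO EBs differed from WT in the same way was not tested. Their levels are given beside several groups of genes.

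EBs are aggregates in which ESCs leave the naive pluripotent state, pass through a primed epiblast-like state and begin to form the germ layers. Their outer layer becomes primitive endoderm and then visceral endoderm, an absorptive epithelium that takes up proteins by endocytosis and lays down a basement membrane of type IV collagen and laminin. PA is a long-chain fatty acid, and PC is the carnitine ester in which it crosses into mitochondria for oxidation. Tnfaip2 encodes a protein related to the exocyst subunit Exoc3. In RNA of whole EBs, fewer cells of a type and less RNA per cell cannot be told apart.

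The guide used to make the clone is shown because it places the lesion in the gene. It matched coding sequence in exon 2 of the transcript Tnfaip2-201 at chr12:111445173-111445192 (GRCm38, forward strand), and the capitals mark the adjacent PAM read from the transcript.
Tnfaip2 guide: tgttcagtgtcttcaccaaaGGG
Tnfaip2 was nearly absent from both groups. It had 16, 6 and 10 counts in the WT libraries and 25, 14 and 16 in the treated KO libraries, and the groups overlapped. Its log2 fold change 0.95, SE 0.343, adjusted p = 0.0164 did not hold with DESeq2 (adjusted p = 0.109), without KO_PAPC replicate 1 (0.131) or without WT replicate 2 (0.101). A frameshift need not lower the transcript, and the counts are no check of the labels.

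The 6 libraries held 27362913 to 28344335 counts each, and their biological coefficient of variation was 2.65%. The labels number the libraries of a group without naming their source. The study's text calls them biological replicates and describes those with PA/PC as independent pools of EBs; as each group came from 1 line or clone, p-values measure the spread between such pools. Mitochondrially encoded genes took 1.85 to 1.87% of the counts in WT libraries and 1.26 to 1.34% in treated KO libraries, a share without the 6 protein-coding ones that had no counts. Levels below are CPM, the counts of a gene relative to the library total. Fold changes rest on TMM scaling, which assumes that most genes do not change. That assumption was not strictly met, as 11760 of 16655 tested genes passed the edgeR test described below. The 2 scales differ: scaling by library totals moved the median over all tested genes by -0.165 on the log2 scale.

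Large differences from WT were mostly losses. Of 16655 tested genes, 6067 (36.4%) were lower and 5693 (34.2%) were higher in treated KO EBs at an adjusted p under 0.05 (edgeR quasi-likelihood test with Benjamini-Hochberg adjustment), called lower or higher below. When a change beyond 2-fold was required of the test (edgeR glmTreat), 1175 genes (7.05%) were lower and 160 (0.961%) were higher, and these are called large changes below. The losses therefore made up 88.0% of the large changes. With TMM scaling, small changes leaned the other way: among called genes with a log2 fold change under 0.5, 2534 were lower and 3863 were higher. Between 1 and 2 the numbers were 1217 and 322, and at 4 or more they were 145 and 6. With a minimum fold of 4 the large changes were 368 lower and 21 higher. Over all tested genes the median log2 fold change was -0.0166. The groups did not overlap in 12166 of the tested genes (73.0%), nor in any large change. Separation of the groups, stated for single genes below, therefore adds nothing to a large change. Counts of called members of a gene list are to be read beside the shares of all tested genes. With scaling by library totals the called genes were 8341 lower and 3616 higher, and the large changes 1446 lower and 108 higher.

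**Figure D1:**
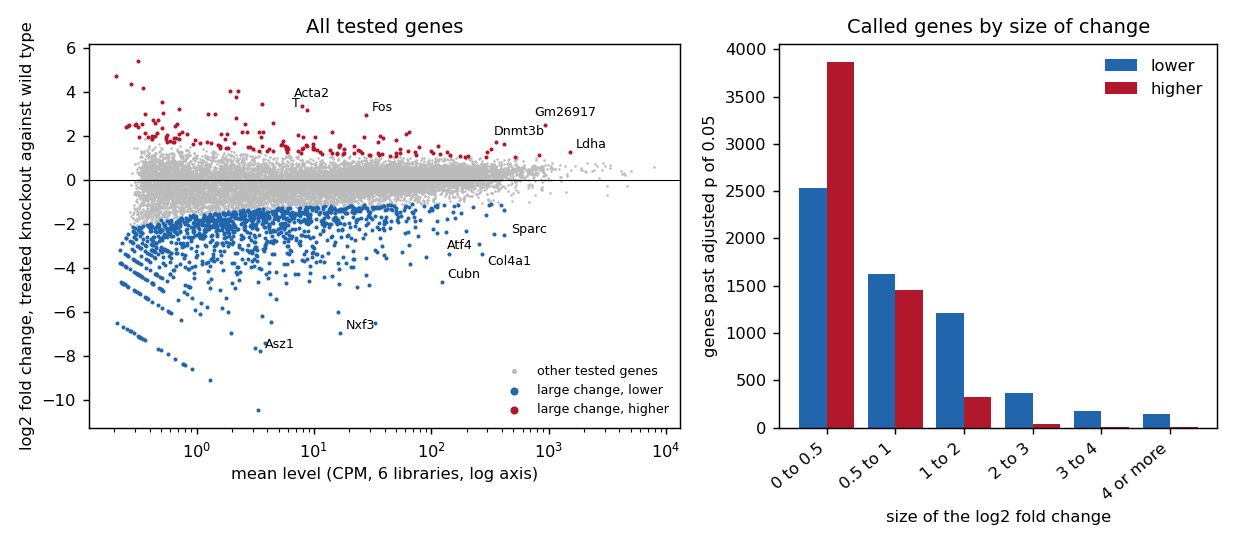
Left, log2 fold change of each tested gene (treated KO against WT) against its mean level in CPM on a log axis, with the 1175 large losses in blue and the 160 large gains in red. Right, genes past an adjusted p of 0.05 by the size of their log2 fold change: gains outnumber losses under 0.5 (3863 against 2534), and losses outnumber gains at 4 or more (145 against 6).

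Genes with large changes of either direction were mostly expressed at low levels in WT EBs. The median WT level was 4.18 CPM for the large losses and 2.72 CPM for the large gains. For all tested genes it was 19.8 CPM. Of the 1175 large losses, 29 had a mean of 100 CPM or more over the 6 libraries. Together the 1175 genes held 23212 CPM in WT and 5881 CPM in treated KO EBs. The 160 genes with large gains rose from 4931 to 11961 CPM in sum. Among genes with a mean of 100 CPM or more, 511 were lower and 1834 were higher. Large losses made up 7.34% of protein-coding genes, 12.2% of lincRNAs and 2.36% of processed pseudogenes. Shares of large losses across 4 classes of transcript GC content lay between 6.42 and 7.74%, and across 4 classes of exon length between 5.29 and 8.53%. Promoter CpG content could be set for only 71.0% of the genes with large losses, under the 80% required, so that this check is void.

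Markers of primitive and visceral endoderm were lost throughout. Of the 24 listed genes 23 were tested, all 23 were lower, 20 of them by a large change, and their median log2 fold change was -2.92. Cubn, the endocytic receptor cubilin, stood at 238, 239.8 and 237 CPM in the WT libraries and at 8.60, 8.70 and 8.97 CPM in the treated KO libraries (log2 fold change -4.60, SE 0.0432, adjusted p = 2.71e-29). The groups were far apart. Dab2, an endocytic adaptor, stood at 116, 119.7 and 113 CPM in WT and 14.2, 12.6 and 13.4 CPM in treated KO EBs (log2 fold change -2.95, SE 0.0476, adjusted p = 8.44e-25). Gata6 and Gata4 encode the transcription factors that specify primitive endoderm. Gata6 stood at 28.9, 30.9 and 30.0 CPM against 1.69, 2.27 and 2.05 CPM (log2 fold change -3.74, SE 0.0880, adjusted p = 1.27e-21). Gata4 stood at 31.9, 31.7 and 33.9 CPM against 2.20, 3.00 and 2.58 CPM (log2 fold change -3.48, SE 0.0842, adjusted p = 2.11e-21). All 3 treated libraries lay below all 3 WT libraries for both factors. Further regulators of the lineage fell alike, with log2 fold changes of -4.19 for Sox7, -3.79 for Sox17, -3.35 for Hnf4a and -3.08 for Foxa2. Secreted products of visceral endoderm were low in WT already: Afp, alpha-fetoprotein, fell from 4.75 ± 0.277 to 1.14 ± 0.204 CPM (mean ± SD, n = 3), Apob from 14.6 ± 0.252 to 3.32 ± 0.258 CPM and Ttr, transthyretin, from 9.24 ± 0.656 to 2.11 ± 0.181 CPM. Lrp2, the partner receptor of cubilin, kept the highest level of the list at 165 ± 5.52 CPM against 376 ± 0.672 CPM in WT, a log2 fold change of -1.02 that did not pass the test beyond 2-fold. Hhex and Fgfr4 were the other called genes without a large change. Summed over the list, the level was 1014 to 1033 CPM in WT libraries and 229 to 241 CPM in treated KO libraries. In untreated KO libraries it was 600 to 606 CPM. Cer1 was too low to test.

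Basement membrane genes fell with them. Of 17 listed genes, 14 were lower and 3 were higher, and 7 losses were large. The list summed to 4769 to 4929 CPM in WT and 2340 to 2369 CPM in treated KO libraries. In untreated KO libraries it summed to 3409 to 3451 CPM. Col4a1 and Col4a2, the chains of the common type IV collagen, lost about the same proportion. Col4a1 stood at 478, 519 and 503 CPM in WT and 43.3, 44.0 and 44.8 CPM in treated KO EBs (log2 fold change -3.34, SE 0.0358, adjusted p = 3.17e-28). Col4a2 stood at 251, 269.6 and 265 CPM against 22.7, 23.4 and 22.8 CPM (log2 fold change -3.35, SE 0.0391, adjusted p = 1.02e-27). Lama1, the laminin alpha 1 chain, stood at 159, 176 and 169 CPM against 13.2, 13.9 and 13.5 CPM (log2 fold change -3.47, SE 0.0471, adjusted p = 2.45e-26). No value of either group reached into the other for these 3 genes. Sparc, a collagen-binding glycoprotein and the nuclear gene with the largest loss in CPM, stood at 699.6, 727 and 716 CPM against 113, 115 and 112 CPM (log2 fold change -2.49, SE 0.0288, adjusted p = 9.42e-28). Serpinh1, the collagen chaperone HSP47, fell by a log2 fold change of -1.55. Col18a1 (0.21), Lama5 (0.28) and the integrin Itgb1 (0.36) were the higher members. Several of the steepest single losses among genes averaging 5 CPM or more were membrane or extracellular proteins: the water channel Aqp8 (-4.72), the FGF co-receptor Klb (-4.67), the hyaluronan-degrading protein Cemip (-4.56) and the prostaglandin transporter Slco2a1 (-4.40).

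Most trophoblast markers were low in both groups. Of 15 listed genes 11 were tested, with 9 lower, 2 higher and 5 large losses. Esx1, a placental homeobox gene, fell from 5.53 ± 0.346 to 1.82 ± 0.137 CPM and Tead4 from 8.21 ± 0.458 to 2.67 ± 0.274 CPM, whereas Cdx2 rose from 0.741 ± 0.133 to 1.67 ± 0.233 CPM. Tfap2c, a transcription factor that germ cells also use, held most of the list's level and fell from 53.3, 54.6 and 53.9 CPM to 26.6, 27.4 and 28.3 CPM (log2 fold change -0.81, SE 0.0434, adjusted p = 1.79e-14). The placental hormone genes Tpbpa, Prl3d1 and Prl2c2 were too low to test. Of 12 markers of blood and heart 5 could be tested, and Runx1, a regulator of blood formation, had the only large loss, from 10.8 ± 1.53 to 1.21 ± 0.232 CPM.

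**Figure D2:**
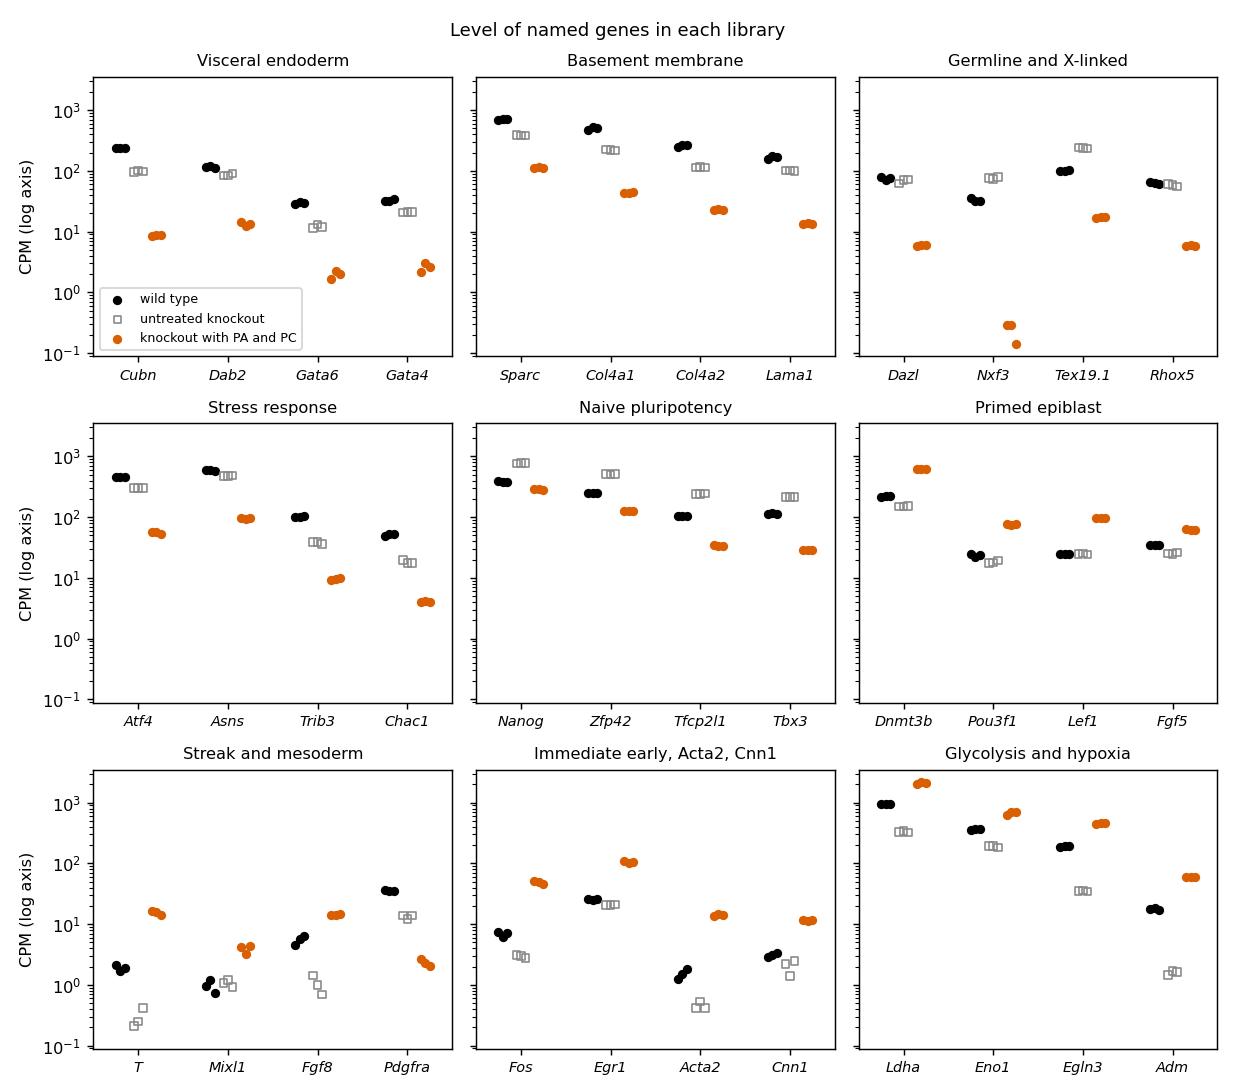
Level of named genes in each library, in CPM on a log axis, in WT EBs (black), untreated KO EBs (open squares, for reference) and PA/PC-treated KO EBs (orange). In the panels of endoderm, basement membrane, germline and stress genes the treated KO points lie below all WT points, and in those of primed epiblast and glycolysis they lie above.

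Germ-cell and early-embryo genes were a second group of losses. These genes act in the germline and are normally kept off or low in somatic cells, although ESCs transcribe some of them. Of 27 listed germline genes, all tested, 21 were lower, none was higher and 12 losses were large. Dazl, an RNA-binding protein of germ cells, stood at 80.4, 71.7 and 76.3 CPM in WT and 5.80, 6.07 and 5.96 CPM in treated KO EBs (log2 fold change -3.51, SE 0.0619, adjusted p = 4.01e-24). Tex19.1, which restrains retrotransposons, stood at 100.3, 102 and 105 CPM against 16.7, 17.7 and 17.6 CPM (log2 fold change -2.40, SE 0.0437, adjusted p = 7.13e-24). Nxf3, of the family of nuclear RNA export factors, had the steepest fall of all genes averaging 5 CPM or more: its 36.3, 32.1 and 31.5 CPM in WT stood against 0.288, 0.292 and 0.144 CPM (log2 fold change -6.92, SE 0.145, adjusted p = 1.18e-22). For each of the 3 genes the groups were far apart. In untreated KO EBs the means of Dazl, Tex19.1 and Nxf3 were 68.7, 238 and 76.2 CPM. Other germline genes differed little, with log2 fold changes of -0.13 for Ddx4, -0.04 for Sycp3 and -0.02 for Tdrd1, of which Ddx4 alone was called. The genes of the 2-cell-like state, which a small share of ESCs enters, were almost lost. Of 17 listed genes 16 were in the table and 8 could be tested, and all 8 had large losses. The list summed to 13.6 to 14.3 CPM in WT libraries and 0.287 to 0.720 CPM in treated KO libraries. The tested members thus passed the expression filter through their WT counts, so that the count of 8 is no support of its own. With no filter beyond 1 count, 13 members were lower and none was higher. Zscan4d stood at 2.22, 1.94 and 2.17 CPM in WT and 0.216, 0.146 and 0.0359 CPM in treated KO EBs, and Tmem92 at 3.95, 3.70 and 3.95 CPM against 0.108, 0.219 and 0.0718 CPM. In untreated KO EBs their means were 38.7 and 59.8 CPM. Of the 51-base words of the Zscan4d transcript 49.1% also occurred in other genes, so that reads of the Zscan4 copies cannot be assigned with certainty.

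Large losses took a larger share of the tested genes of the X chromosome than of any autosome. On it 113 of 638 tested genes (17.7%) had a large loss, while the autosomes ranged from 3.10% on chromosome 17 to 8.90% on chromosome 11. Large gains on the X were 0.940%. Chromosomes 8 and 17 had the lowest shares of losses, and chromosome 13 had the highest share of large gains, 3.92%. The gains on chromosome 13 lay mostly in histone gene clusters, described below.

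**Figure D3:**
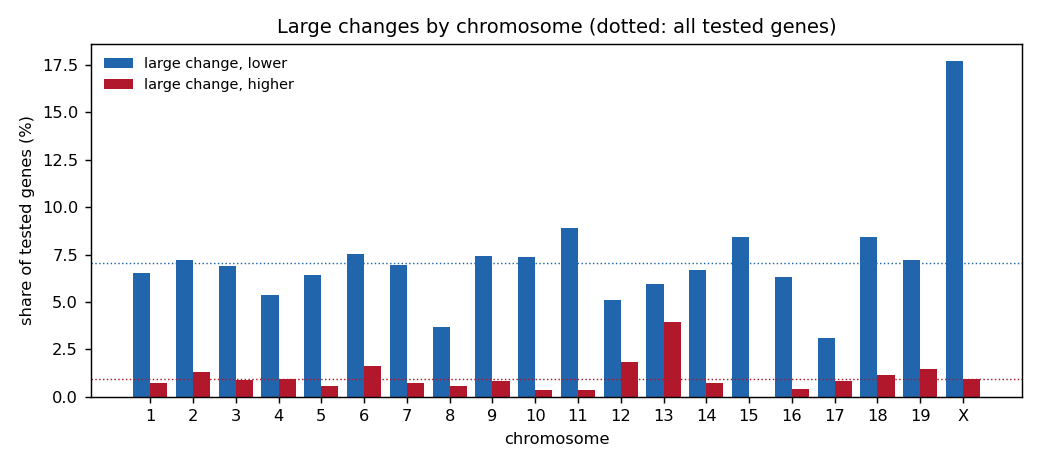
Share of tested genes with a large loss (blue) or gain (red) on each chromosome, with the share over all tested genes as dotted lines (7.05% and 0.961%). The X chromosome reaches 17.7% for losses, and chromosome 13 reaches 3.92% for gains.

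Neighbouring genes were lost together. Windows of 10 neighbouring tested genes with at least 5 large changes of the same direction merged into 20 stretches, 18 lower and 2 higher. The Rhox cluster on chrX:37209348-38306028 (GRCm38) had large losses in 9 of 10 tested genes. Rhox5, the best expressed of these reproductive homeobox genes, stood at 64.7, 62.2 and 62.0 CPM in WT and 5.76, 5.99 and 5.89 CPM in treated KO EBs (log2 fold change -3.26, SE 0.0576, adjusted p = 4.21e-24). Rhox6 fell from 6.49 ± 0.0611 to 0.362 ± 0.131 CPM and Rhox13 from 10.4 ± 1.09 to 0.663 ± 0.268 CPM. Of the 34 listed Rhox genes 6 could be tested, and the others were at or near 0 in both groups. The list summed to 93.9 to 95.1 CPM in WT and 7.68 to 8.11 CPM in treated KO libraries. In untreated KO libraries it summed to 123 to 130 CPM. A second stretch on chrX:72222017-73398736 held Magea4, Magea10, Pnma5 and 5 Xlr genes among its 9 losses of 16 tested genes. Pnma5 stood at 32.1, 31.1 and 32.2 CPM against 0.540, 0.402 and 0.395 CPM (log2 fold change -5.98, SE 0.112, adjusted p = 1.25e-23). The longest, chrX:136927325-140939472, had 14 large losses among 29 tested genes. Among them was Tex13b, a testis-expressed gene, at 57.6, 57.7 and 56.2 CPM in WT and 1.55, 1.90 and 2.23 CPM in treated KO EBs (log2 fold change -4.75, SE 0.0785, adjusted p = 1.2e-24), and Trap1a, a tumour antigen gene, at 273 ± 5.17 against 88.1 ± 1.89 CPM. Fmr1nb, Scml2 and Gm364 on the X, outside the stretches, fell by log2 fold changes of -4.86, -4.30 and -6.48. Autosomal stretches were not of 1 kind. That on chr7:10794242-11614112 was the Zscan4 cluster with 5 of 5 tested genes, and that on chr7:103415072-104862667 held 4 Usp17l genes beside Trim30a and Trim30d. That on chr5:118027743-119691218 held Tbx3 with its flanking transcripts Tbx3os1 and Tbx3os2. That on chr11:104231390-105989964 held 9 genes of unlike function, among them the integrin Itgb3 (-4.36), the peptidase Ace (-3.35), the tubulin-binding protein Mapt (-2.75) and the myosin light chain Myl4 (-3.01). Requiring a mean of at least 10 counts left 13 stretches, and scaling by library totals gave 29.

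Of the Mage genes, most of which lie on the X, 11 of 21 could be tested. The subfamilies parted: Magea4, Magea8, Magea10, Mageb4 and Mageb16 had large losses, and none exceeded 2.64 ± 0.363 CPM in WT (Mageb16). Maged1, the most abundant, did not pass the test (0.05), and Magel2, an imprinted gene of another chromosome, rose from 10.5 ± 0.314 to 25.5 ± 1.22 CPM.

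A few genes expressed in WT EBs were nearly silent in treated KO EBs. Among genes averaging 2 CPM or more in WT, 13 had at most 3 counts in every treated KO library, and no gene met the reverse criterion. Asz1, which acts in the piRNA pathway of germ cells, had 210, 176 and 192 counts in WT and 2, 0 and 0 in treated KO EBs. Gm9, in the Rhox stretch, had 173, 191 and 158 counts against 0, 0 and 2. AI662270 and Gm11427 lie in 1 stretch of losses on chromosome 11. AI662270 had 240, 198 and 201 counts against 1 in each treated library, and Gm11427 had 178, 193 and 183 counts against 0 in each. For Gm11427 the WT level was at least 61.0-fold higher, taking 3 counts per library as the floor. Fthl17f, a ferritin heavy chain-like gene of the X, also had 0 counts in each treated library and was at least 23.9-fold higher in WT. The others were Pyy, Crisp1, Tktl2, Ccser1, 4930550L24Rik, Xlr3a, Tslrn1 and Gm8994, so that 5 of the 13 lay on the X. Fthl17f, Pyy, Crisp1 and the others beyond the 6 with the highest WT level were named after their values were seen.

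Genes of the integrated stress response formed the third group of losses, and some of them were abundant. In this response a block in translation initiation raises the transcription factor Atf4, which induces genes of amino acid supply and redox balance. Of 17 listed genes, 16 were lower, 11 by a large change, and 1 was higher, with a median log2 fold change of -1.40. The list summed to 5204 to 5356 CPM in WT and 2660 to 2802 CPM in treated KO libraries. In untreated KO libraries it summed to 2907 to 2938 CPM. Atf4 itself stood at 459, 459 and 457 CPM in WT and 56.6, 56.5 and 52.9 CPM in treated KO EBs (log2 fold change -2.88, SE 0.0327, adjusted p = 8.17e-28). Asns, asparagine synthetase, stood at 591, 587 and 585 CPM against 97.3, 93.6 and 97.6 CPM (log2 fold change -2.45, SE 0.0295, adjusted p = 1.82e-27). Trib3, a pseudokinase induced by Atf4, stood at 101, 102 and 103 CPM against 9.11, 9.72 and 10.1 CPM (log2 fold change -3.24, SE 0.0482, adjusted p = 1.79e-25). The 3 treated libraries lay within a narrow range far below WT for each of these genes. Chac1, which breaks down glutathione, stood at 49.5, 53.4 and 52.4 CPM in WT and 4.07, 4.17 and 3.95 CPM in treated KO EBs, and Nupr1, a stress-induced nuclear protein, at 39.5, 42.7 and 38.9 CPM against 3.17, 2.85 and 2.98 CPM. The amino acid transporters Slc7a5 (-1.37) and Slc7a11 (-2.08) and the serine and one-carbon enzymes Psat1 (-1.12) and Mthfd2 (-1.42) had large losses, while Shmt2 (-0.28) and Phgdh (-0.48) fell less. Ddit4, an inhibitor of mTORC1 that hypoxia also induces, was the member that rose, from 582 ± 21.7 to 984 ± 44.1 CPM. Atf3, counted with the immediate early genes below, also belongs to this response and fell (log2 fold change -3.20, SE 0.117, adjusted p = 9.48e-18).

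Promoters of these genes are shown as a description of the list. The motif TGATGNAA, the core of the composite element that ATF4 binds with C/EBP proteins, was searched on both strands of the RefSeq promoter window (250 bases before to 50 after the start, GRCm38.p6). A promoter was in the table for 16 of the 17 genes, and 6 of the 16 (37.5%) held a match: Aars, Asns, Chac1, Nupr1, Slc7a11 and Trib3. Of the 11702 tested genes with a promoter in the table, 2.11% held one. The list was made of genes attributed to this response, so that the contrast does not depend on these libraries and is no test of them. The 250 bases before the start are printed for 4 of them, with the matches in capitals, on chr6:7693210-7693459, reverse strand (Asns), chr2:119350992-119351241, forward strand (Chac1), chr7:126625471-126625720, reverse strand (Nupr1) and chr3:50443614-50443863, reverse strand (Slc7a11). A match describes the sequence and is not a measured binding site.
Asns: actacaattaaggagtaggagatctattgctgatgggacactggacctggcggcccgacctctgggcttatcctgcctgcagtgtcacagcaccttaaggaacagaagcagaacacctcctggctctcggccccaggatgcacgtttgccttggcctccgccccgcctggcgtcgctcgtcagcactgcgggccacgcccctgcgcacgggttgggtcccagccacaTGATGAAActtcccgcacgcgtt
Chac1: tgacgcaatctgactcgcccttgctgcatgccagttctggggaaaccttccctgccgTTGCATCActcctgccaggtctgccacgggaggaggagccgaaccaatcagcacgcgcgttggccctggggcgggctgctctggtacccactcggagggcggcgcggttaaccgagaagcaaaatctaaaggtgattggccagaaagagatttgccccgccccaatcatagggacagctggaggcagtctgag
Nupr1: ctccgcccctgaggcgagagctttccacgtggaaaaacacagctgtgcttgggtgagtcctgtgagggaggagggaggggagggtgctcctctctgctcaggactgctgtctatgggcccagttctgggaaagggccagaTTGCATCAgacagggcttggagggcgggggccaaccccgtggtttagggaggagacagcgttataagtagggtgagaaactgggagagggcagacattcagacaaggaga
Slc7a11: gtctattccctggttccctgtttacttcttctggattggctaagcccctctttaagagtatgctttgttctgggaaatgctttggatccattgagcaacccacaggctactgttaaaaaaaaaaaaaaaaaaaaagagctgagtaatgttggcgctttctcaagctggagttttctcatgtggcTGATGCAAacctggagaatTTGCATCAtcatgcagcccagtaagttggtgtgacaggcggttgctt

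Targets of p53 were mostly lower too. Of 15 listed genes, 11 were lower, 5 of them by a large change, and 1 was higher. Gdf15, a secreted stress factor that Atf4 also induces, stood at 21.8, 22.5 and 23.1 CPM in WT and 2.95, 3.25 and 3.12 CPM in treated KO EBs (log2 fold change -2.69, SE 0.0807, adjusted p = 1.7e-19). Cdkn1a, the cell-cycle inhibitor p21, stood at 127, 128 and 125 CPM against 57.1, 56.1 and 54.6 CPM (log2 fold change -1.01, SE 0.0348, adjusted p = 2.54e-18). The groups did not overlap for either gene. Besides Gdf15, the large losses were those of Trp53inp1 (-1.08), Eda2r (-1.32), Phlda3 (-1.20) and Perp (-1.97). Cdkn1a did not pass the test beyond 2-fold, and Trp53 itself was not called (0.03). The rise of Bax, 0.07, was lost under 7 alternatives, scaling by library totals and 4 leave-one-out fits among them.

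Pluripotency genes split by state. Of 18 naive genes, 13 were lower, 3 were higher (15 and 0 with scaling by library totals) and 6 losses were large. Tbx3 stood at 114, 118 and 114 CPM in WT and 29.0, 28.8 and 28.9 CPM in treated KO EBs (log2 fold change -1.83, SE 0.0382, adjusted p = 1.1e-22). Tfcp2l1 stood at 103, 103 and 105 CPM against 34.9, 33.8 and 34.0 CPM (log2 fold change -1.43, SE 0.0375, adjusted p = 1.12e-20). Zfp42 (Rex1) stood at 253, 252 and 251 CPM against 124, 126 and 126 CPM (log2 fold change -0.84, SE 0.0290, adjusted p = 2.73e-18). Treated libraries lay below WT libraries throughout for these 3 transcription factors. Besides Tbx3 and Tfcp2l1, the large losses were those of Prdm14 (-1.32), Tcl1 (-1.49), Pecam1 (-1.44) and Dppa3 (-1.52). Nanog fell less, from 392, 382 and 380.4 CPM to 294, 286 and 281 CPM (log2 fold change -0.26, SE 0.0281, adjusted p = 1.21e-08). Klf2 was called higher (0.23), a call that scaling by library totals ended (adjusted p = 0.158), and in untreated KO EBs the means of Nanog and Zfp42 were 778 and 508 CPM. Lif, the cytokine that sustains the naive state in culture, fell from 13.1 ± 0.798 to 4.06 ± 0.292 CPM. Genes of the core network that naive and primed cells share had no large change: 9 of 12 were higher and 3 lower (7 and 4 with scaling by library totals). Lin28a, an RNA-binding protein, rose from 330.0 ± 4.39 to 565 ± 4.90 CPM and Tdgf1, a Nodal co-receptor, from 381 ± 13.7 to 648 ± 12.5 CPM, with Pou5f1 (Oct4) at 684 ± 14.3 CPM in WT and 843 ± 23.3 CPM in treated KO EBs.

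Genes of the formative and primed epiblast rose. Of 15 listed genes 14 were higher and 1 was lower, with a median log2 fold change of 0.95, the highest of the 31 lists. Dnmt3b, a de novo DNA methyltransferase, stood at 215, 219 and 221 CPM in WT and 631, 613 and 615 CPM in treated KO EBs (log2 fold change 1.67, SE 0.0271, adjusted p = 8.86e-25). Lef1, a transcription factor of Wnt signalling, stood at 24.9, 24.8 and 25.2 CPM against 97.7, 95.2 and 96.7 CPM (log2 fold change 2.12, SE 0.0395, adjusted p = 1.17e-23). Pou3f1 (Oct6) stood at 24.9, 22.3 and 24.1 CPM against 77.4, 73.7 and 76.9 CPM (log2 fold change 1.84, SE 0.0454, adjusted p = 3.13e-21). These 3 were the large gains, with every treated library above every WT library. Fgf5, the classical marker of the primed state, rose from 34.6 ± 0.129 to 62.4 ± 2.06 CPM, and Otx2 from 218 ± 6.43 to 282 ± 5.18 CPM.

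Among germ-layer genes, neural genes mostly rose and mesodermal genes had no common direction. Of 20 neuroectoderm genes 17 were tested, with 14 higher and 1 lower. Sox1, an early neural factor, stood at 68.9, 71.1 and 75.0 CPM in WT and 119, 119 and 120.3 CPM in treated KO EBs (log2 fold change 0.90, SE 0.0352, adjusted p = 3.2e-17), and Sox11 at 122, 120.2 and 117 CPM against 236, 228 and 232 CPM (log2 fold change 1.12, SE 0.0309, adjusted p = 3.22e-20). Pax6 rose by 0.80 and Nes by 0.82 on the log2 scale. Sox21 was the member that fell, from 19.3 ± 0.963 to 4.80 ± 0.457 CPM. Of 24 genes of the primitive streak and mesoderm 18 were tested, with 8 lower and 6 higher. These counts are not far from the shares of all tested genes, 36.4% lower and 34.2% higher. The gains were T, Evx1, Mixl1, Fgf8, Gsc and Wnt3. T (Brachyury), a transcription factor of the streak, stood at 2.12, 1.69 and 1.92 CPM in WT and 16.5, 15.7 and 14.2 CPM in treated KO EBs (log2 fold change 3.18, SE 0.104, adjusted p = 9.84e-19). Mixl1 stood at 0.953, 1.19 and 0.724 CPM against 4.21, 3.25 and 4.38 CPM, and Evx1 at 0.564, 0.647 and 0.543 CPM against 3.28, 3.91 and 4.02 CPM. No WT library reached a treated library for any of the 3. The mean of T in untreated KO EBs was 0.292 CPM. Fgf8 rose by 1.54, Gsc by 1.04 and Wnt3 by 0.97, whereas Eomes did not pass the test (-0.09). The losses were Pdgfra, Tbx20, Kdr, Lhx1, Snai1, Isl1, Bmp4 and Mesp2. Pdgfra, a growth factor receptor of mesoderm that also marks primitive endoderm, stood at 35.8, 34.6 and 35.8 CPM against 2.63, 2.30 and 2.08 CPM (log2 fold change -3.75, SE 0.0801, adjusted p = 1.66e-22). Tbx20, a heart factor, fell from 4.09 ± 0.203 to 0.362 ± 0.112 CPM and Kdr, a VEGF receptor, from 1.94 ± 0.493 to 0.519 ± 0.240 CPM. Mesp1, Msgn1, Meox1, Foxc1, Foxc2 and Foxf1 were too low to test.

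Some immediate early genes, and the smooth muscle genes Acta2 and Cnn1, were among the steepest gains. Immediate early genes respond within minutes to growth factors, serum or handling. Of the 17 tested of 21 listed, 13 were higher, 3 of them by a large change, and 4 were lower. Fos stood at 7.51, 6.15 and 7.24 CPM in WT and 50.8, 49.7 and 45.7 CPM in treated KO EBs (log2 fold change 2.97, SE 0.0665, adjusted p = 4.53e-22). Egr1 stood at 25.5, 25.2 and 25.8 CPM against 108, 102 and 104 CPM (log2 fold change 2.20, SE 0.0401, adjusted p = 7.13e-24). Fosb stood at 0.247, 0.395 and 0.326 CPM against 3.74, 4.02 and 4.23 CPM (log2 fold change 3.78, SE 0.202, adjusted p = 1.66e-14). The groups were apart for all 3, but Ier2 (0.41) and Dusp1 (0.50) of the same class rose little, and Nr4a1 (-0.62) and Btg2 (-0.84) fell. Acta2, smooth muscle actin, had the steepest rise of all genes averaging 5 CPM or more, from 1.23, 1.51 and 1.85 CPM to 13.4, 14.9 and 14.2 CPM (log2 fold change 3.37, SE 0.112, adjusted p = 1.32e-18). Cnn1, calponin of smooth muscle, rose from 2.93, 3.06 and 3.30 CPM to 11.6, 11.5 and 11.8 CPM (log2 fold change 2.07, SE 0.0914, adjusted p = 3.85e-16). Tagln, with 48.0% of its 51-base words in other genes, rose from 0.826 ± 0.245 to 2.68 ± 0.239 CPM. Of 14 fibroblast markers, which include Acta2 and Tagln, 11 were tested, with 7 higher, 3 of them by a large change, and 1 lower. The remaining large gain was Col3a1, a fibrillar collagen chain, from 0.0358 ± 0.000482 to 0.664 ± 0.228 CPM. Pdgfrb (-0.10), Lox (-0.09) and Col6a1 (-0.16) did not pass the test, Twist1 fell (-0.75), and Dcn, Lum and Postn were too low to test. The list of 14 summed to 31.9 to 35.0 CPM in WT libraries and 41.5 to 45.8 CPM in treated KO libraries. Vim, the intermediate filament vimentin, rose from 205, 205 and 204 CPM to 379, 396 and 377 CPM (log2 fold change 1.07, SE 0.0285, adjusted p = 1.49e-20), beside an untreated KO mean of 49.9 CPM. Zeb2 (1.23) and Cdh2 (1.10) rose and the epithelial keratins Krt19 (-1.97) and Krt8 (-1.14) fell, while Cdh1 (E-cadherin) rose (0.66). Over the whole list of epithelium and mesenchyme, 6 of 15 were lower and 8 higher, and 7 of each with scaling by library totals.

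Metabolic genes for glucose use rose. Of 19 genes of glucose uptake and glycolysis 17 were higher and 2 lower, with a median log2 fold change of 0.76 and a summed level of 15891 to 16306 CPM in WT libraries and 21714 to 22661 CPM in treated KO libraries. Ldha, lactate dehydrogenase, stood at 952, 960.1 and 958 CPM in WT and 2017, 2161 and 2098 CPM in treated KO EBs (log2 fold change 1.29, SE 0.0259, adjusted p = 4.76e-23). Pkm, pyruvate kinase, was among the 6 genes with the largest gain in CPM and stood at 2264, 2373 and 2316 CPM against 3392, 3618 and 3567 CPM (log2 fold change 0.77, SE 0.0256, adjusted p = 1.35e-18). Both gains were larger than the spread within either group. Targets of hypoxia signalling divided into 11 higher and 6 lower of 19. Adm, adrenomedullin, stood at 17.5, 18.2 and 17.0 CPM against 60.7, 60.1 and 60.1 CPM (log2 fold change 1.95, SE 0.0457, adjusted p = 1.24e-21), and Egln3, a HIF prolyl hydroxylase, at 188, 192 and 195 CPM against 443, 456 and 458 CPM (log2 fold change 1.40, SE 0.0280, adjusted p = 4.34e-23). Vegfa, the vascular growth factor, fell from 139, 146 and 145 CPM to 71.0, 72.6 and 73.5 CPM (log2 fold change -0.82, SE 0.0337, adjusted p = 1.01e-16). The untreated KO mean of Egln3 was 35.2 CPM. Genes of cholesterol synthesis and uptake rose almost without exception: 24 of 25 were higher, among them Hmgcs1, the synthase that opens the pathway, from 263 ± 10.2 to 466 ± 16.0 CPM. One gain was large (Fdps, 1.26, a synthase at 4.98 ± 0.745 CPM in WT, with 11.6% of its 51-base words in other genes), and Ebp was the member that fell (-0.39).

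Genes that handle fatty acids, the class of the agents supplied, changed mostly by small amounts. Of 26 genes of fatty acid oxidation 16 were lower and 8 higher (17 and 3 with scaling by library totals), with 1 large loss and a median log2 fold change of -0.18. Slc25a20, the carrier that takes acylcarnitines such as PC across the inner mitochondrial membrane, stood at 98.7, 96.9 and 101 CPM in WT and 26.7, 28.1 and 26.3 CPM in treated KO EBs (log2 fold change -1.70, SE 0.0406, adjusted p = 1.6e-21). Cpt1a, which makes acylcarnitine, stood at 99.2, 102 and 98.7 CPM against 49.8, 52.0 and 49.4 CPM (log2 fold change -0.82, SE 0.0365, adjusted p = 4.37e-16). Both lay lower in every treated library. Acsl4 (0.96) and Acsl3 (0.75), which activate fatty acids, rose. Of 15 genes that fatty acids induce through PPAR receptors in other tissues 7 could be tested, with 4 lower and none higher. Fabp3, a fatty acid-binding protein, fell from 66.0 ± 1.16 to 12.5 ± 0.994 CPM, and Pdk4, which restrains glucose oxidation, from 18.4 ± 1.18 to 4.57 ± 0.224 CPM. Angptl4 did not pass the test (0.12). Among 27 tested genes of lipid droplets and triacylglycerol, 12 were lower and 7 higher (17 and 4 with scaling by library totals). These counts are not far from the shares of all tested genes, 36.4% lower and 34.2% higher, and say little about the list. With scaling by library totals 8341 of all 16655 tested genes were lower and 3616 higher. The acyltransferase Gpat3 fell from 8.96, 10.3 and 7.86 CPM to 0.540, 0.402 and 0.395 CPM (log2 fold change -4.16, SE 0.177, adjusted p = 1.81e-16) and the lipase Mgll from 2.26 ± 0.135 to 0.144 ± 0.124 CPM, while Plin2, the common droplet coat protein, did not pass the test (-0.06) and the related acyltransferase Gpat4 rose (0.36). Of the mitochondrially encoded genes 7 of 13 were tested and all 7 were lower, the other 6 having no counts in the 6 libraries. Multi-mapping and overlapping reads were not counted, and their part in these zeros was not tested. Their log2 fold changes lay between -0.24 for mt-Nd1 and -0.99 for mt-Nd5. They took 5 of the 6 largest losses in CPM, with mt-Cytb at 4053, 4005 and 4029.9 CPM in WT and 2394, 2229 and 2276 CPM in treated KO EBs (log2 fold change -0.64, SE 0.0250, adjusted p = 3.03e-17). Nuclear genes of the respiratory chain did not share a direction, with 18 of 83 lower and 37 higher, which became 43 and 13 with scaling by library totals. The steepest losses among them were tissue-restricted subunits, Cox6a2 (-6.32), Cox7b2 (-2.88) and Cox6b2 (-1.09). Of 78 cytosolic ribosomal protein genes 75 were higher, none by a large change, with a median of 0.49.

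Histone genes and loci that collect ribosomal RNA reads were higher in the same comparison. Replication-dependent histone genes, whose mRNAs mostly lack poly(A) tails and are poorly captured by poly(A) selection, were higher in 24 of 28 tested genes, 20 by a large change, and made up both higher stretches, on chr13:21715763-22043676 and chr13:23531050-23764406. Hist1h1d stood at 0.741, 0.755 and 0.435 CPM in WT and 6.62, 6.07 and 6.85 CPM in treated KO EBs (log2 fold change 3.49, SE 0.162, adjusted p = 1.02e-15), and Hist1h1b at 0.247, 0.216 and 0.398 CPM against 3.89, 4.35 and 4.56 CPM (log2 fold change 4.04, SE 0.210, adjusted p = 9.8e-15). The 28 genes summed to 27.8 to 29.8 CPM in WT libraries and 60.0 to 60.3 CPM in treated KO libraries. In untreated KO libraries they summed to 57.2 to 60.0 CPM. Loci that collect reads of ribosomal RNA (Gm26917, Gm23935, Gm15564, CT010467.1, Mir6236 and Lars2) were all higher and summed to 475 to 519 CPM in WT libraries and 1912 to 2154 CPM in treated KO libraries. Their sum in untreated KO libraries was 1054 to 1092 CPM. Gm26917 stood at 275, 327 and 319 CPM against 1463, 1631 and 1618 CPM (log2 fold change 2.52, SE 0.0456, adjusted p = 6.51e-24). The sets hold 20 and 5 of the 160 large gains and were put together after values were seen. The cause of their rise and their part in the other gains were not tested. Processed pseudogenes, which share sequence with abundant mRNAs, were higher in 261 and lower in 60 of 762. Of all tested genes 34.2% were higher and 36.4% lower. The gains of this class were thus near the share of all genes, and its losses were fewer.

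Most members of the remaining lists changed by less than 2-fold. Of all tested genes 36.4% were lower and 34.2% higher, and counts near these shares say little about a list. Of 26 tested imprinted genes 8 were lower and 12 higher (12 and 10 with scaling by library totals). Single members moved far: Peg10, a retrotransposon-derived gene needed for the placenta, fell from 3.95, 4.35 and 4.06 CPM to 0.0720, 0.110 and 0.179 CPM (log2 fold change -4.88, SE 0.254, adjusted p = 1.03e-14), and Plagl1, a zinc finger gene, had 25, 27 and 32 counts in WT and 0, 1 and 0 in treated KO EBs. Meg3 (-0.19), Igf2r (-0.07) and Peg3 (0.31) stayed within a small range. Of 20 genes of DNA methylation and Polycomb, 7 were lower and 9 higher (10 and 4 with scaling by library totals). Scml2, a Polycomb-associated protein of germ cells, stood at 56.0, 52.2 and 52.6 CPM against 2.48, 1.94 and 2.84 CPM (log2 fold change -4.30, SE 0.0810, adjusted p = 1.29e-23), and Bmi1, a subunit of Polycomb complex PRC1, fell from 31.9 ± 1.97 to 12.1 ± 0.635 CPM. Of 18 tested genes of Nodal and BMP signalling 7 were lower and 8 higher, which became 10 and 5 with scaling by library totals, 7 and 7 under DESeq2, and 7 or 8 lower against 7 higher in 4 leave-one-out fits. Nodal did not pass the test (-0.05), and Bmp2 (-1.98), Id4 (-1.54) and the Nodal-processing protease Pcsk6 (-1.53) had large losses. Of 12 tested genes of the exocyst and relatives of Tnfaip2, 5 were lower and 3 higher (9 and 1 with scaling by library totals), none by a large change, with Exoc4 at -0.53 and Exoc6b at -0.78, and Exoc3 was called at 0.17 but not with scaling by library totals (0.003, adjusted p = 0.949).

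**Figure D4:**
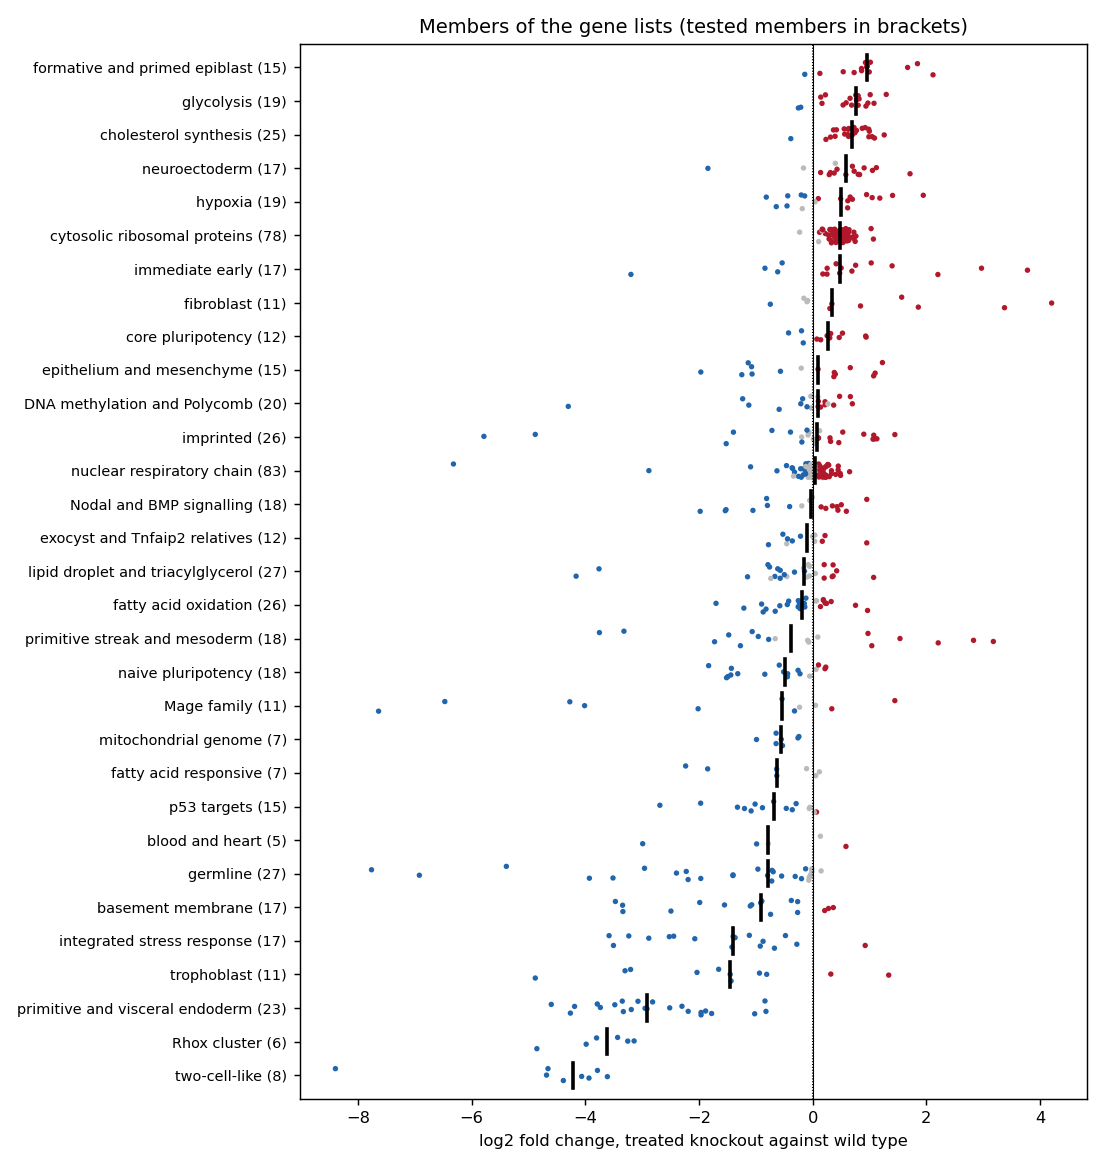
Log2 fold change (treated KO against WT) of each tested member of the 31 gene lists, ordered by median (black bar), with lower genes in blue, higher genes in red and genes that did not pass the test in grey; the dotted line is the median of all tested genes. The medians run from -4.23 for the 2-cell-like genes to 0.95 for the formative and primed epiblast.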

How the data were processed

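Total RNA was extracted from EBs, and unstranded TruSeq RNA libraries made from it were sequenced with single-end reads of 51 cycles. The authors deposited raw counts per gene, and per the labels STAR 2.7.2b and featureCounts 1.6.5 produced them, with bcl2fastq 2.20.0.422 for base calls. Multi-mapping reads and reads shared by overlapping genes were left out of the counts, and strand was not used, so that overlapping and antisense genes and near-identical copies are uncertain. Groups were taken from the sample titles.

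The 3 treated KO and 3 WT libraries were fitted together in edgeR 4.0.16 (R 4.3.3) with TMM scaling, the filterByExpr filter, the quasi-likelihood F test and Benjamini-Hochberg adjustment at 0.05. Large changes were those past glmTreat with a minimum fold of 2. SE is the log2 fold change divided by the root of F. CPM used library totals and is given as mean ± SD (n = 3). Gene positions came from GENCODE (GRCm38), in which 241 of 55471 IDs had no match. The scripts were tested on simulated data. DESeq2 1.42.0 and the other alternatives are in the closing section. Named genes were those in the study's text, the 12 largest falls and rises among genes averaging 5 CPM or more, the 6 largest CPM differences each way, up to 4 per list by adjusted p, the 6 nearly silent genes with the highest WT level and genes of stretches; any other gene was named after its values were seen. The comparison and the gene lists were chosen with earlier results of these data known.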

Additional observations from a re-analysis of the deposited data

How the results depend on the processing

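The number of large changes depended on how the fold was tested. DESeq2, with the same minimum fold in its test, gave 828 large changes, 744 lower and 84 higher (89.9% lower), of which 808 were among those of edgeR. A minimum fold of 1.5 gave 2953, with 2235 lower and 718 higher (75.7% lower), and a minimum fold of 4 gave 389, with 368 lower and 21 higher (94.6% lower). Scaling by library totals lowered the called gains to 3616 and raised the share of losses to 93.1%. Nearly silent genes numbered 4 with a WT mean of at least 5 CPM and 54 with at most 10 counts in treated libraries, and stretches numbered 13 with a mean of at least 10 counts. Leaving out each library in turn gave 11208 to 11654 called genes, 1278 to 1344 large changes, 1130 to 1191 of them lower and 143 to 158 higher, and a share of losses of 88.1 to 89.1%. Of the values of the 301 genes followed one by one under the alternatives, 4489 kept direction and call, 6 lost the call and none changed direction: Tnfaip2 (3 times), Exoc3 and Klf2 as given above, and Vsig1 with DESeq2 (-2.99, adjusted p = 0.110). Bax and other list members outside these 301 were followed only through the counts of their lists. The causes were not tested.

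Same-numbered libraries of the groups did not deviate together, with correlations of 0.135, 0.0807 and -0.00976 for numbers 1 to 3, so that the numbers are not taken as pairs. A replicate block gave 12223 called genes and 1351 large changes, 1187 lower and 164 higher (87.9% lower). Depth limited genes under the filter: of 34 Rhox genes, 6 were tested.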
